A study of Homo sapiens with 48 samples.

Results

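HSP90, HSP110 and their co-chaperones were followed as 10 genes, chosen by symbol from the 33892 gene rows of the count table: HSP90AA1, HSP90AB1, HSPH1, HSPA4, HSPA4L, STIP1, AHSA1, CHORDC1, FKBP4 and CDC37. RNA was sequenced from 8 established human cancer cell lines after 24 h with carfilzomib, an irreversible proteasome inhibitor, or with its solvent DMSO. RKO and DLD-1 came from colon cancer, H-23 and H-1299 from lung cancer, PANC-1 and CAPAN-2 from pancreatic cancer, and H-929 and RPMI from multiple myeloma. The 16 groups of a line and a treatment held 3 biological replicates each, 48 libraries in all, and no group carried another agent or an engineered allele per the labels. Carfilzomib was given to each line at the concentration that inhibits its proteasome activity by 50%, and the concentrations themselves were not used here, so line and dose cannot be told apart in any difference between lines. A tumour type was represented by 2 lines, and the study's title concerns the HSP70 response to proteasome inhibition.

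HSP90 is an abundant ATP-driven chaperone dimer of the cytosol that takes partly folded clients, among them kinases and steroid receptors, from HSP70. The HSP110 proteins HSPH1, HSPA4 and HSPA4L are distant relatives of HSP70 and exchange its nucleotide, which lets HSP70 release its client. Co-chaperones set the course of the cycle: STIP1 (HOP) bridges HSP70 and HSP90, AHSA1 (AHA1) stimulates the ATPase of HSP90, CHORDC1 binds HSP90 through its CHORD and CS domains, FKBP4 (FKBP52) is an immunophilin of receptor complexes, and CDC37 brings kinases. Several of these genes are textbook targets of the heat shock factor HSF1, which binds repeats of the unit GAA and its reverse complement TTC and is released when damaged proteins engage chaperones. HSP90AA1 is known as the stress-inducible and HSP90AB1 as the constitutive cytosolic HSP90.

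Total counts per library ran from 9.12 to 64.4 M (M, mega). The plasma cell genes IRF4 and MZB1 averaged at least 556 and 642 CPM (counts scaled to a common library total, with the TMM normalization of edgeR) in untreated H-929 and RPMI and at most 0.293 and 0.385 CPM in the other 6 lines. The plasma cell marker SDC1 separated the lines less, at 427 CPM in RPMI against 375 CPM in CAPAN-2, and XBP1 reached 221 CPM in DLD-1 against 746 CPM in RPMI. RPMI also held the epithelial marker EPCAM at 119 CPM. H-929 held the lung marker NAPSA at 42.7 CPM and CD3E, a marker of other blood cells, at 22.3 CPM. EPCAM was at 730 CPM in DLD-1 and 7.73 CPM in RKO, CDX2 at 115 and 20.9 CPM, and LGALS4 had no count in either colon line. In the lung lines NAPSA and SFTPB were at most 2.42 and 1.63 CPM. KRT19 was at 901 CPM in PANC-1 and 2425 CPM in CAPAN-2, with PDX1 at 1.13 and 1.06 CPM and MUC1 at 3.26 and 114 CPM. The colon line DLD-1 also held KRT19 at 768 CPM. The pancreatic duct markers SOX9 and PDX1 were highest in the colon lines DLD-1 (222 CPM) and RKO (7.71 CPM). In every pair of replicates the difference was larger than counting noise, with a chi-square of 3.33 or more per degree of freedom. For 9 of the members, the highest replicate of any group exceeded the lowest by at most 1.78-fold in CPM. CHORDC1 was the exception, with up to 25.03-fold between replicates. Its row carries the identifier ENSG00000285023, while the reference annotation pairs that symbol with ENSG00000110172, a gene whose counts were not analysed here. Its values are given below as uncertain.

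By GENCODE release 29 on hg38, the build named in the submitters' processing notes, HSP90AA1 (ENSG00000080824) lies at chr14:102080738-102139699 on the minus strand and HSP90AB1 (ENSG00000096384) at chr6:44246166-44253888 on the plus strand. HSPH1 (ENSG00000120694) is at chr13:31134974-31162388, HSPA4 (ENSG00000170606) at chr5:133051962-133106449 and HSPA4L (ENSG00000164070) at chr4:127781821-127840733. STIP1 (ENSG00000168439) is at chr11:64185272-64204543, AHSA1 (ENSG00000100591) at chr14:77457870-77469474, FKBP4 (ENSG00000004478) at chr12:2794953-2805423 and CDC37 (ENSG00000105401) at chr19:10391134-10420121. HSP90AA1 and AHSA1 share a chromosome, as do STIP1 and CHORDC1 in the RefSeq table, and neither pair are neighbours.

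Since many members moved together in several lines, the 250 bases before each RefSeq transcript start (GRCh38.p14) were searched for the heat shock element in its plain letters. An array was a run of the units GAA and TTC in alternation, beginning with either, with any 2 bases (NN) between a unit and the next. Arrays of 3 units and of 2 units were sought on both strands, and overlapping matches were counted. A window with 3 units by this definition also holds 2. RefSeq gave 16 windows for 9 of the members. HSP90AA1, HSP90AB1 and CHORDC1 held 3 units in 1 window each, and HSPA4L joined them for 2 units. The CHORDC1 window lies in the gene to which the reference annotation gives that symbol. The counted row carries another identifier. Of all 35116 windows of the same length, 0.441% held 3 units and 11.6% held 2 units. No match was found in the windows of HSPH1, HSPA4, STIP1, AHSA1 and CDC37, which says only that these letters are not in those 250 bases. Stretches with matches are printed 5′ to 3′ on the gene's strand to show how the arrays of the 2 cytosolic HSP90 genes compare with the other members that held a match, and capitals mark the matched letters. The CHORDC1 window held 2 further matches of 2 units, 205 and 23 bases before its start, outside the stretch shown. They are chr14:102087104-102087133 (minus strand) for HSP90AA1, chr6:44247768-44247865 (plus) for HSP90AB1, chr11:90223083-90223112 (minus) for CHORDC1 and chr4:127782141-127782170 (plus) for HSPA4L.
HSP90AA1: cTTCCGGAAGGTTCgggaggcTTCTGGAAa
HSP90AB1: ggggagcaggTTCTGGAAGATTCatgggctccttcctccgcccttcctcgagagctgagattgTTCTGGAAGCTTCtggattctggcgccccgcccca
CHORDC1: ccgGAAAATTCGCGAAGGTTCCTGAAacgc
HSPA4L: tttccagatctTTCTCGAAcccgcagcttc

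The HSP90AA1 stretch ends 60 bases before its start and the HSP90AB1 stretch 78 bases before its own. The HSP90AB1 window is the third of that gene, whose start lies 842 bases downstream of the start of the second window, and its arrays were 2 separate 3-unit matches. Each printed stretch also lies inside a GENCODE transcript of its gene that starts further upstream. A match is a description of letters and was not measured as a bound site.

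Carfilzomib moved the members in opposite directions in different lines. Of 80 values, 1 for each member in each line, 42 rose, 13 fell and 25 did not pass. Of all genes in all lines, 20.8% of values rose and 21.1% fell. The test was the quasi-likelihood test of edgeR within a line, and a call needed an adjusted p under 0.05. Without CHORDC1, 41 of 72 values rose and 13 fell. Every call was under 2-fold in the downward direction, and 8 of the 41 rises were at least 2-fold: HSP90AA1 and HSPH1 in H-1299, H-929 and RPMI, AHSA1 in H-1299 and HSPA4L in RPMI.

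In H-1299, 9 of the 10 members rose, the uncertain CHORDC1 among them, and none fell, where 29.8% of all tested genes rose and 31.3% fell. In PANC-1, 8 rose and none fell, against 20.5% and 18.2% of tested genes. In CAPAN-2, 8 rose and none fell, against 25.7% and 26.7%. In these 3 lines, and in H-23 and RPMI below, the share of members that rose was above the share of all genes.

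H-23 had 6 risen members and 1 fallen, with 17.7% of tested genes higher and 16.2% lower. RPMI had 6 risen and 1 fallen as well, with 31.3% and 32.2% of tested genes. H-929 had 4 risen and 2 fallen, against 26.4% and 26.2%, which is near the background in both directions.

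The colon lines stood on the other side. In RKO no member rose and 5 fell, where 3.62% of tested genes rose and 5.28% fell. In DLD-1, CDC37 rose and 4 members fell, where 10.9% and 12.1% of tested genes were called. The median log2 fold change of the members was -0.18 in RKO and -0.09 in DLD-1, against medians of all tested genes of 0.00 in both.

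Elsewhere that median was 0.13 in H-23, 0.71 in H-1299, 0.31 in PANC-1, 0.50 in CAPAN-2, 0.05 in H-929 and 0.67 in RPMI, with medians of all genes between -0.02 and 0.03. Scaling to plain library totals in place of TMM moved the median of all genes in H-1299 by -0.11 and by at most 0.04 in either direction in the other lines. It also changed the share of calls that were rises from 40.6% to 60.9% in RKO, from 47.5% to 60.3% in DLD-1 and from 48.8% to 38.9% in H-1299.

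**Figure D1:**
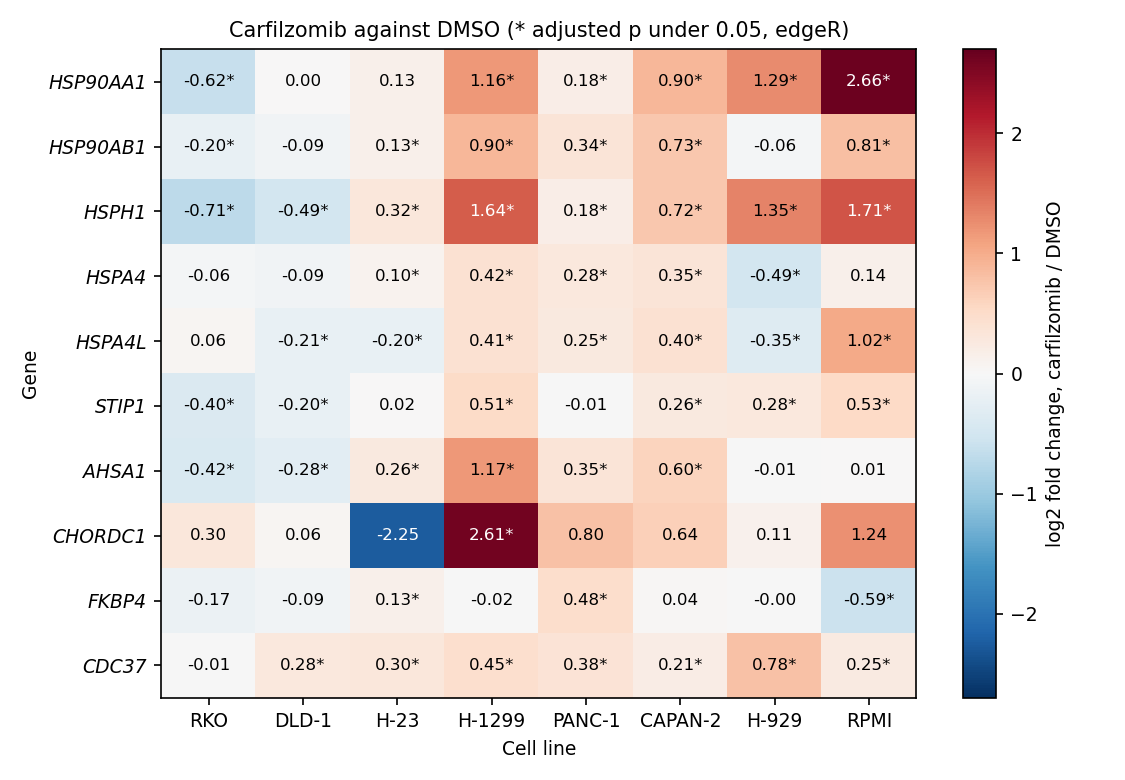
Log2 fold change of carfilzomib against DMSO for each of the 10 genes (rows) in each of the 8 lines (columns), red for higher and blue for lower, with a star where the adjusted p was under 0.05. Blue stars gather in the colon lines RKO and DLD-1, and the strongest red is HSP90AA1 in RPMI at 2.66.

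HSP90AA1 had the widest response of the reliably counted members, from a fall of 0.62 on the log2 scale in RKO to a rise of 2.66 in RPMI. In RPMI the DMSO libraries held 905, 871 and 916 CPM and the carfilzomib libraries 4897, 5299 and 6765 CPM. The groups were far apart, and the rise was 6.30-fold (log2 2.66 ± 0.10, SE, adjusted p 7.11e-11). In H-929, the other myeloma line, DMSO gave 2127, 2176 and 2269 CPM and carfilzomib 5470, 5295 and 5254 CPM. That rise was 2.44-fold. On a scale shared by all libraries, treated H-929 reached 960 ± 32.4 and treated RPMI 1173 ± 199 CPM per kilobase of exon (SD, n = 3), from 458 and 195, and the treated libraries of the lines did not overlap.

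In H-1299, HSP90AA1 rose from 2675, 3056 and 2627 CPM to 6556, 6074 and 6077 CPM, which is 2.24-fold. In CAPAN-2 it rose from 866, 809 and 740 CPM to 1658, 1363 and 1479 CPM, which is 1.86-fold. Neither line had an overlap between treatments. PANC-1 had the smallest rise that passed, from 418 ± 17.98 to 472 ± 26.2 CPM (SD, n = 3), and that call was lost in the fit of all 48 libraries (adjusted p 0.191).

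HSP90AA1 did not pass in DLD-1 (log2 0.00 ± 0.06, SE) or in H-23 (0.13 ± 0.06, adjusted p 0.0974), and the libraries of the treatments overlapped in both. In RKO the DMSO libraries held 2751, 2377 and 2637 CPM and the carfilzomib libraries 1664, 1753 and 1619 CPM. All 3 treated libraries lay below all 3 controls, and the level fell by 0.62 on the log2 scale (adjusted p 9.87e-06) to 0.649 of the control.

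HSP90AB1, the constitutive gene, changed less than HSP90AA1 in most lines. It rose more than HSP90AA1 in PANC-1 (log2 0.34 against 0.18). In DLD-1, where neither passed, it was further from 0 (-0.09 against 0.00). The rises were 1.87-fold in H-1299, from 2417, 2830 and 2545 CPM to 4872, 4880 and 4795 CPM, and 1.76-fold in RPMI, from 2594, 2602 and 2729 CPM to 4437, 4677 and 4822 CPM. The treated libraries lay above all controls in both lines. CAPAN-2 followed with 1.66-fold, from 572 ± 32.8 to 949 ± 37.7 CPM (SD, n = 3), and PANC-1 with 1.27-fold, from 1533 ± 47.1 to 1943 ± 20.8 CPM.

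In H-23 the rise of HSP90AB1 was 1.09-fold (adjusted p 0.00308), without overlap of the libraries, and it did not pass in the fit of all libraries (adjusted p 0.199). RKO fell by 0.20 on the log2 scale, from 3379 ± 174 to 2944 ± 76.7 CPM, and without carfilzomib replicate 3 this call was lost (adjusted p 0.0580). DLD-1 was at -0.09 (adjusted p 0.0697). H-929 held 2383, 2415 and 2488 CPM after DMSO and 2519, 2231 and 2230 CPM after carfilzomib, which overlapped (log2 -0.06 ± 0.07, adjusted p 0.490). In the fit of all libraries the H-929 value was -0.22 (adjusted p 0.000459), and the scaling of that fit shifted the log2 fold changes of all genes in H-929 by a median of -0.16.

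**Figure D2:**
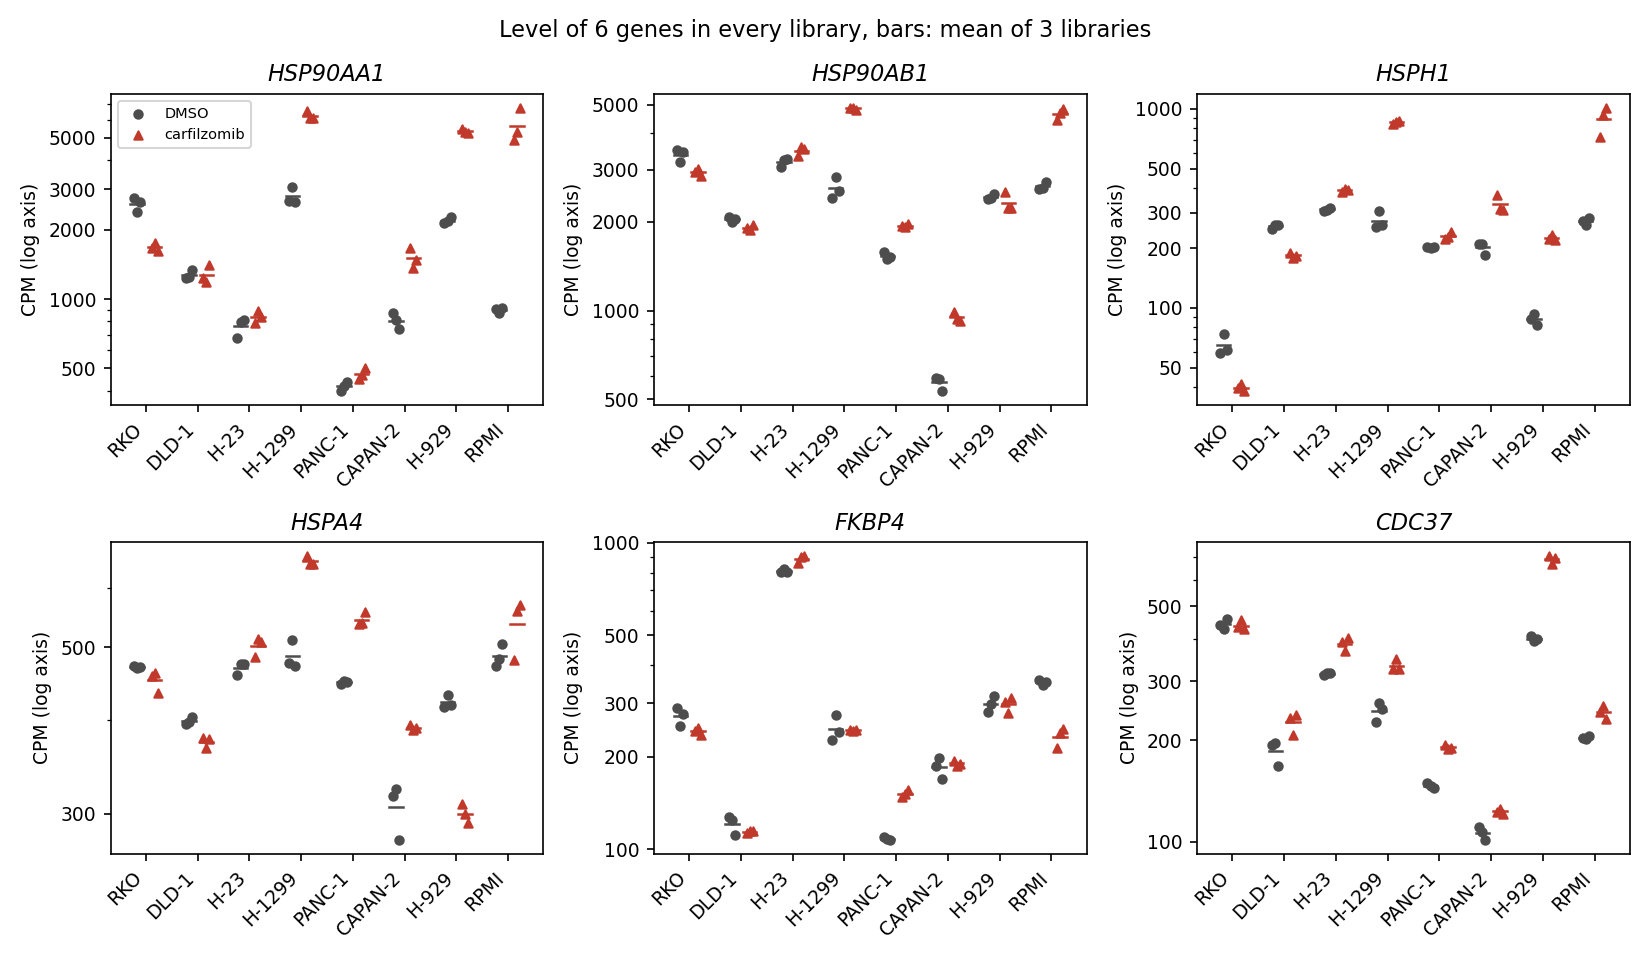
CPM on a log axis for HSP90AA1, HSP90AB1, HSPH1, HSPA4, FKBP4 and CDC37 in each library, DMSO as grey circles and carfilzomib as red triangles, with bars at the mean of 3 libraries. In RPMI the carfilzomib libraries of HSP90AA1 lie between 4897 and 6765 CPM against 871 to 916 CPM after DMSO, and FKBP4 is lower after carfilzomib in that line.

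The ratio of HSP90AA1 to HSP90AB1 counts within a library needs no scaling between libraries. It has no length correction and so serves only to compare treatments. In H-929 it was 0.902 ± 0.00972 after DMSO and 2.30 ± 0.112 after carfilzomib (SD, n = 3). In RPMI it went from 0.340 ± 0.00783 to 1.21 ± 0.165. These shifts, 1.35 and 1.83 on the log2 scale, were the largest of the 8 lines.

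The log2 ratio also moved without overlap of the libraries in H-1299, by 0.26, and in RKO, where it fell by 0.43. With 3 against 3 libraries the exact two-sided permutation test cannot go below 0.1, and it gave exact p = 0.1 in H-929, RPMI, H-1299 and RKO. DLD-1 shifted by 0.09 (exact p = 0.3), H-23 by 0.01 (exact p = 1), PANC-1 by -0.17 (exact p = 0.2) and CAPAN-2 by 0.17 (exact p = 0.2), each with overlapping libraries. Treatment thus separated the ratios most in the myeloma lines, where HSP90AA1 counts gained on HSP90AB1. Rows of processed pseudogenes held 0.828% to 1.87% of the HSP90AA1 count and 0.530% to 1.54% of the HSP90AB1 count. How the counting split reads between such copies and the genes is not given in the sources used here.

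**Figure D3:**
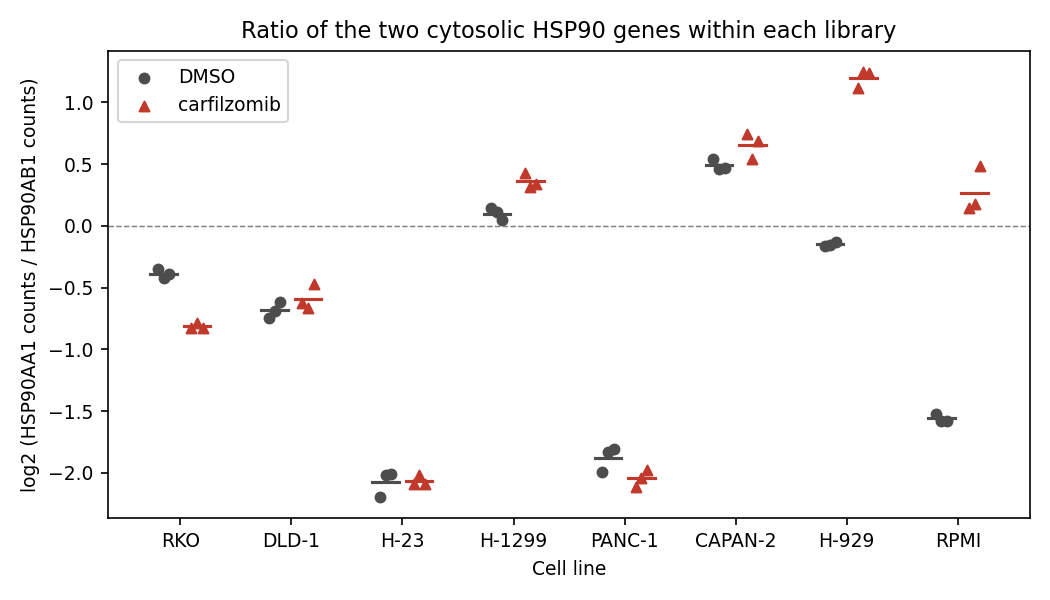
Log2 ratio of HSP90AA1 to HSP90AB1 counts in each library (y axis) by line (x axis), DMSO as grey circles and carfilzomib as red triangles, with bars at the mean of 3 libraries. The treatments are widest apart in RPMI (difference 1.83) and H-929 (1.35), and RKO is the line with a clear drop (-0.43).

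Of the HSP110 genes, HSPH1 was called in all 8 lines, up in 6 and down in 2. In RPMI it rose from 273, 260 and 282 CPM to 721, 928 and 1012 CPM, 3.26-fold, and in H-1299 from 256, 307 and 261 CPM to 841, 862 and 871 CPM, 3.12-fold. In H-929 it rose from 88.5, 93.3 and 82.4 CPM to 222, 232 and 219 CPM, 2.55-fold. Treated and control libraries were separate in each.

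The rise of HSPH1 was 1.65-fold in CAPAN-2, 1.24-fold in H-23 and 1.14-fold in PANC-1, where the call was lost in the fit of all libraries (adjusted p 0.128). HSPH1 fell from 59.6, 74.3 and 61.2 CPM to 39.8, 41.5 and 38.3 CPM in RKO, a fall by 0.71 on the log2 scale (adjusted p 0.000208). In DLD-1 it fell from 251, 262 and 260 CPM to 190, 178 and 183 CPM, a fall by 0.49 (adjusted p 3.50e-05). In each colon line, HSPH1 had the largest fall of the members.

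HSPA4 moved within a narrow band. It rose 1.34-fold in H-1299, from 486 ± 21.5 to 650 ± 9.10 CPM (SD, n = 3), 1.28-fold in CAPAN-2 and 1.21-fold in PANC-1. In H-929 it fell from 416, 431 and 419 CPM to 309, 300 and 292 CPM, by 0.49 on the log2 scale (adjusted p 3.14e-05), in the line where HSPH1 rose 2.55-fold. The treated libraries all lay below the controls.

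In H-23 the rise of HSPA4 was 1.07-fold (adjusted p 0.0303), and it was lost with library totals, without a filter, in the fit of all libraries (adjusted p 0.0619, 0.173 and 0.396) and without DMSO replicate 1, 2 or 3 or carfilzomib replicate 2 or 3, with adjusted p between 0.0839 and 0.175. RKO, DLD-1 and RPMI did not pass, with log2 values of -0.06, -0.09 and 0.14. The RPMI value passed at a mean of at least 50 counts (adjusted p 0.0321) and without carfilzomib replicate 1 (0.21, adjusted p 0.00640).

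HSPA4L rose 2.02-fold in RPMI from 10.99, 11.62 and 12.33 CPM to 17.1, 23.4 and 30.2 CPM. The treated libraries of RPMI spread widely but stayed above all controls (adjusted p 8.65e-05). It rose 1.32-fold in both H-1299 and CAPAN-2 and 1.19-fold in PANC-1.

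HSPA4L fell in DLD-1 (log2 -0.21, adjusted p 0.0306), H-23 (-0.20, adjusted p 0.0147) and H-929 (-0.35, adjusted p 0.0348). The DLD-1 call was lost without carfilzomib replicate 2 or 3 (adjusted p 0.0907 and 0.118), and the H-23 call without DMSO replicate 3 (0.0652). Both were lost in the fit of all libraries (0.121 and 0.0971), and the DLD-1 call also with library totals (0.0738). The H-929 call was lost without DMSO replicate 1 or 3 or carfilzomib replicate 1 or 3 (0.0589 to 0.0928), with library totals (0.0515) and at a mean of at least 50 counts (0.136), at 247 to 664 counts per library.

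STIP1, the bridge between HSP70 and HSP90, rose 1.45-fold in RPMI, from 517, 518 and 547 CPM to 733, 765 and 793 CPM, and 1.43-fold in H-1299, from 356, 403 and 369 CPM to 541, 540 and 530 CPM. Smaller rises were 1.21-fold in H-929 and 1.19-fold in CAPAN-2. In the fit of all libraries the H-929 value dropped from 0.28 to 0.11 on the log2 scale and did not pass (adjusted p 0.0539). STIP1 fell in RKO from 320 ± 5.01 to 243 ± 4.82 CPM (SD, n = 3), by 0.40 on the log2 scale, and in DLD-1 by 0.20. H-23 and PANC-1 were within 0.02 of 0.

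AHSA1, the activator of the HSP90 ATPase, rose 2.26-fold in H-1299, from 204, 227 and 201 CPM to 478, 478 and 470 CPM. This was its only change above 2-fold. It rose 1.52-fold in CAPAN-2, from 93.5 ± 8.57 to 142 ± 7.62 CPM (SD, n = 3), 1.28-fold in PANC-1 and 1.197-fold in H-23.

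AHSA1 did not pass in either myeloma line, at -0.01 ± 0.08 (SE) in H-929 and 0.01 ± 0.05 in RPMI on the log2 scale, where HSP90AA1 and HSPH1 rose. Treated and control libraries of AHSA1 overlapped in both. In the fit of all libraries the H-929 value was -0.17 (adjusted p 0.0180), under the shift of all genes given above. In RKO it fell from 195 ± 11.1 to 146 ± 7.18 CPM (log2 -0.42, adjusted p 0.000316) and in DLD-1 from 122 ± 5.42 to 101 ± 1.82 CPM (log2 -0.28, adjusted p 0.00206).

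FKBP4, the immunophilin, followed another order. It rose 1.40-fold in PANC-1, from 109, 108 and 107 CPM to 148, 151 and 156 CPM, and 1.10-fold in H-23 (adjusted p 0.00298), a call that was lost in the fit of all libraries (adjusted p 0.235). In RPMI it fell from 357, 344 and 352 CPM to 213, 239 and 247 CPM, by 0.59 on the log2 scale (adjusted p 1.201e-06). It was the one member that fell in RPMI, where all treated libraries lay below the controls. The other 5 lines did not pass, from -0.17 in RKO to 0.04 in CAPAN-2. The RKO value passed as lower without a filter (adjusted p 0.0169), with the Wald test of DESeq2 (0.021) and without DMSO replicate 2 (0.0112). The DLD-1 value passed as lower without DMSO replicate 3 (-0.15 against -0.09, adjusted p 0.0192), and the H-929 value in the fit of all libraries (-0.16, adjusted p 0.0211).

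CDC37, the kinase adaptor, rose in 7 lines and fell in none, which no other member did. In H-929 it rose from 408, 393 and 400 CPM to 705, 667 and 696 CPM, 1.72-fold (adjusted p 3.29e-07). The rises elsewhere lay between 1.16-fold in CAPAN-2 and 1.36-fold in H-1299, with no overlap of the libraries in any of the 7 lines.

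In DLD-1 the rise of CDC37 was 1.21-fold (adjusted p 0.0161), and it was lost without carfilzomib replicate 1 or 3 (adjusted p 0.0796 and 0.0849). RKO held 441, 428 and 458 CPM after DMSO and 433, 455 and 428 CPM after carfilzomib, and did not pass (log2 -0.01 ± 0.04, SE).

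CHORDC1 was at 9 to 1215 counts per library, and its replicates disagreed by up to 38.1-fold in counts, between 12 and 457 in H-23 after DMSO. It rose in H-1299 with an adjusted p of 0.0383, where carfilzomib replicate 1 held 1215 counts against 67 and 66 in the others. Without that library the log2 fold change was -0.24 (adjusted p 0.799), and the call was also lost without DMSO replicate 2 or 3 (0.0924 and 0.105). It did not pass in the other 7 lines, from -2.25 in H-23 to 1.24 in RPMI. Leaving out 1 DMSO library made it pass as lower in H-23, and as higher in PANC-1, CAPAN-2 and RPMI (adjusted p 0.000664 to 0.0356).

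Whether a member responded differently between lines was tested in 1 edgeR fit of all 48 libraries. The 8 log2 fold changes differed for 9 of the 10 members, CHORDC1 being the exception, at a share near that background, since 67.7% of all tested genes differed too. The adjusted p ran from 1.13e-24 for HSP90AA1 to 2.07e-07 for CDC37, and was 0.317 for CHORDC1. Within a tumour type 40 differences were tested, 10 in each pair of lines, and 24 passed, or 23 without CHORDC1.

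In the lung pair the log2 fold change was larger in H-1299 than in H-23 for 8 members and smaller for none, where 13.3% and 17.5% of all genes were called. The differences were 1.28 ± 0.11 (SE) for HSPH1, 0.98 ± 0.12 for HSP90AA1, 0.87 ± 0.08 for AHSA1 and 0.73 ± 0.08 for HSP90AB1. They were smaller for HSPA4L (0.56), STIP1 (0.45) and HSPA4 (0.27), and the last of these was lost without replicate 1 of every group (adjusted p 0.0552). CHORDC1 is the eighth. Its difference of 4.84 was 0.51 without replicate 1 (adjusted p 0.962).

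In log2 fold change CAPAN-2 exceeded PANC-1 for 5 members and fell below it for 1, where 13.5% and 11.4% of all genes were called. HSP90AA1 differed by 0.75 ± 0.12 (SE), HSPH1 by 0.56 ± 0.11, HSP90AB1 by 0.41 ± 0.08, STIP1 by 0.30 ± 0.07 and AHSA1 by 0.27 ± 0.08. Without replicate 1, STIP1 and AHSA1 were lost (adjusted p 0.0547 and 0.0958), and AHSA1 also without replicate 3 (0.0994). FKBP4 went the other way, at -0.42 ± 0.09 (adjusted p 0.000178), with a rise in PANC-1 and a value in CAPAN-2 that did not pass. CDC37 at -0.14 did not pass (adjusted p 0.210), and it passed with DESeq2 size factors (-0.20, adjusted p 0.0375), library totals (0.0498) and a mean of at least 50 counts (0.0480).

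The log2 fold changes of the myeloma lines differed for 8 members. H-929 was below RPMI for 6 and above it for 2, where 21.5% and 18.9% of all genes were called. The log2 fold changes of HSP90AA1 and HSPA4L were lower in H-929 by the widest margins, -1.45 ± 0.12 and -1.45 ± 0.16 (SE). HSP90AB1 at -0.96 ± 0.08 and HSPA4 at -0.72 ± 0.07 followed. HSPH1 at -0.44 ± 0.11 did not pass without replicate 2 (adjusted p 0.0661), and STIP1 was at -0.34 ± 0.07. FKBP4 (0.50 ± 0.09) and CDC37 (0.45 ± 0.08) had the higher value in H-929. In this fit the scaling shifted all genes by a median of -0.16 in H-929 and -0.08 in RPMI, and with plain library totals the same number of members, 8, passed. On data simulated with the same dispersion for every gene, the test of this pair made more false calls than its nominal rate.

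Between the colon lines 2 differences passed, with 1.8% of all genes higher and 2.24% lower in RKO. The log2 fold change of HSP90AA1 was lower in RKO by 0.62 (SE 0.12, adjusted p 0.000521). That of CDC37 was lower by 0.29 (SE 0.08, adjusted p 0.0230). The CDC37 difference was lost without replicate 1 (adjusted p 0.191) and without replicate 3 (-0.12, adjusted p 0.651), and was -0.44 without replicate 2.

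**Figure D4:**
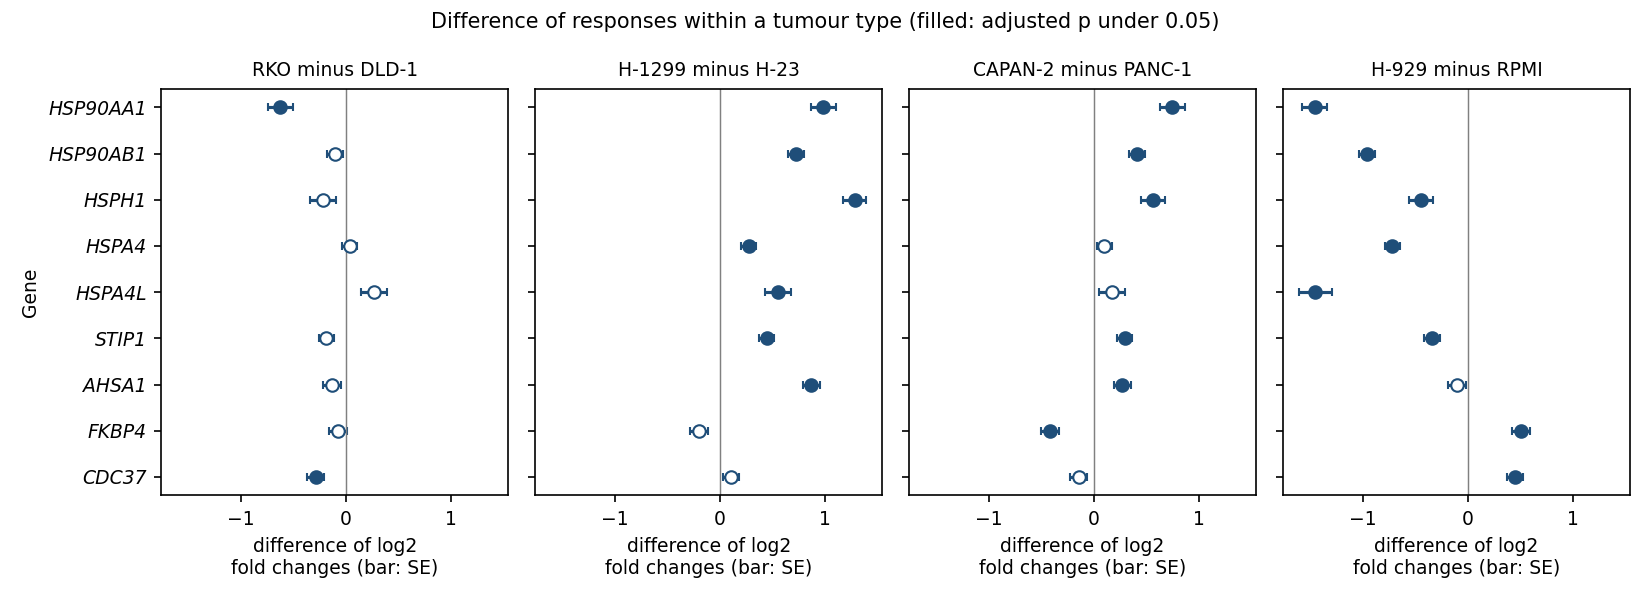
Difference of the log2 fold changes between the lines of each tumour type (x axis) for 9 genes (y axis), with bars of 1 SE and filled points where the adjusted p was under 0.05. Points lie right of 0 for most genes in the lung and pancreatic pairs, and on both sides of 0 in the myeloma pair, with FKBP4 and CDC37 on the right.

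With the line as the unit, 1 log2 fold change per line, limma's test of the average found no member past an adjusted p of 0.05, while 1.34% of 11622 genes passed upward and 1.08% downward. At an unadjusted p under 0.05, 3 members and 2902 of all genes were found. CDC37 averaged 0.33 ± 0.09 (SE, adjusted p 0.0698) and was above 0 in 7 of 8 lines. HSP90AA1 averaged 0.71 ± 0.29 (adjusted p 0.167) and HSPH1 0.59 ± 0.26 (adjusted p 0.191), so these averages did not stand out from the spread between lines. With any 1 line left out, still no member passed.

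Untreated levels were compared per kilobase of exon, in CPM scaled over all 48 libraries, for the 9 members with a matching annotation. By this measure HSP90AB1 was the most abundant of them in every line. The length merges all annotated exons of a gene, 5248 bases for HSP90AA1 and 2980 for HSP90AB1, whichever transcripts a line uses. Before division by length HSP90AA1 was the higher of these genes in H-1299 (2786 against 2597 CPM) and CAPAN-2 (805 against 572 CPM), so their order there depends on the length. RKO led at 1016 ± 57.7 CPM per kilobase (SD, n = 3), and RPMI (1009), H-23 (982), H-1299 (946) and H-929 (895) followed, each overlapping its neighbour. DLD-1 (666), PANC-1 (504) and CAPAN-2 (208) came next, with no overlap between neighbours.

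HSP90AA1 was highest in H-1299 at 576 ± 46.1 CPM per kilobase, then H-929 (458) and RKO (442), which overlapped. DLD-1 (236), RPMI (195), CAPAN-2 (166), H-23 (133) and PANC-1 (77.98) were separate from their neighbours. The range was 7.39-fold. RKO, where HSP90AA1 fell after carfilzomib, and H-929, where it rose 2.44-fold, overlapped before treatment.

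HSPH1 ran from 36.9 ± 1.83 CPM per kilobase in RPMI to 6.94 ± 0.843 in RKO, with H-1299 (35.5) and H-23 (34.2) overlapping their neighbours at the top and H-929 (11.5) next to the bottom. HSPA4 had the smallest range, 1.67-fold, between 107 in RPMI and 64.3 in CAPAN-2. HSPA4L had the largest, 8.85-fold, between 10.1 in H-1299 and 1.14 in RPMI, with H-1299 and RKO (9.99) overlapping.

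STIP1 was at 129 ± 6.26 CPM per kilobase in RPMI and between 61.0 and 93.2 in the other lines, of which RKO, CAPAN-2 and DLD-1 overlapped as neighbours. AHSA1 ran from 77.8 in RPMI, overlapping H-1299 (77.6), to 22.7 in PANC-1. FKBP4 stood at 143 ± 1.42 in H-23, above RPMI at 77.1, and was lowest in PANC-1 (20.5), which overlapped DLD-1 (22.8). CDC37 had no overlapping neighbours, from 145 in H-929 to 37.9 in CAPAN-2.

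**Figure D5:**
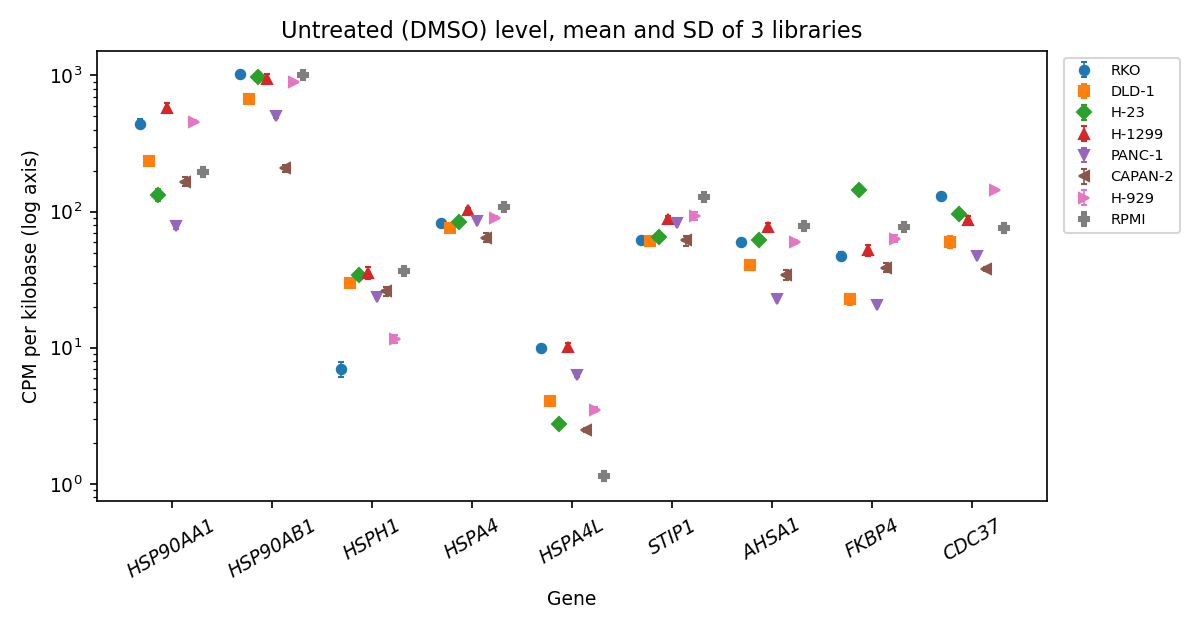
Untreated level in CPM per kilobase on a log axis for 9 genes (x axis), with the mean and SD of the 3 DMSO libraries of each line in its own colour and marker. HSP90AB1 lies highest, between 208 and 1016, and HSPA4L lowest, between 1.14 and 10.1.

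The other co-chaperones and the relatives of HSP90 in other compartments gave the setting. Of 20 further cytosolic HSP90 co-chaperones, 19 were tested in the lines, and of their values 49 rose (32.2%), 28 fell (18.4%) and 75 did not pass. Over all genes and lines 20.8% of values rose and 21.1% fell. TTC1, a TPR protein, rose in 7 lines and had the highest median log2 fold change of this list, 0.68, with 1.51 in H-1299. ST13 (HIP), a partner of HSP70 and HSP90, and UNC45A, a myosin chaperone that binds HSP90, rose in 6 lines each, with medians of 0.28 and 0.28. Each of them lost the call of 1 line when 1 library was left out. FKBP5, the immunophilin related to FKBP4, had the lowest median, -0.23, and fell in 3 lines, to -1.41 in H-929. It rose in PANC-1 (0.19, adjusted p 0.0242), a call that was lost without DMSO replicate 1 (adjusted p 0.111).

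In the R2TP complex, which works with HSP90 in the assembly of large complexes, 9 of 32 values rose (28.1%) and 7 fell (21.9%), against those shares of all values. RPAP3 had the highest median, 0.28, and PIH1D1 the lowest, -0.09. Among HSP90B1, TRAP1, HYOU1 and CNPY3, 10 of 32 values rose and 10 fell, 31.2% each against 20.8% and 21.1% of all values. TRAP1, the mitochondrial HSP90, fell in 6 lines and rose in none, with a median of -0.42. Its DLD-1 call (-0.23) was lost without carfilzomib replicate 1, 2 or 3 (adjusted p 0.126, 0.076 and 0.0943) or DMSO replicate 1 or 2 (0.0936 and 0.0992). HYOU1, the HSP110 relative of the endoplasmic reticulum, rose in 5 lines with a median of 1.55, and its row is uncertain because it shares its identifier with another row. Its PANC-1 carfilzomib libraries held 2.98, 56.5 and 6.36 CPM and its H-23 ones 2.02, 17.9 and 1.99 CPM, and both overlapped their controls. Without carfilzomib replicate 2 the log2 value went from 2.80 to 0.56 (adjusted p 0.142) in PANC-1 and from 1.88 to -0.015 (adjusted p 0.968) in H-23. A call of HYOU1 was lost without 1 library in 3 of its 5 lines, DLD-1 being the other one (adjusted p up to 0.0718), and without DMSO replicate 2 it passed in H-929 (1.03 against 0.00).

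Beside the HSP70 genes, HSPA1A and HSPA1B summed over their 8 rows rose in 5 lines. On the log2 scale the lung lines gained 2.13 (H-23) and 6.14 (H-1299), CAPAN-2 gained 3.26, and the myeloma lines gained 7.75 (RPMI) and 9.60 (H-929). They did not pass in RKO, DLD-1 or PANC-1 (-0.40, -0.35 and -0.14). PANC-1 had 8 risen members, by at most 1.40-fold, beside that sum. Other genes on the HSP70 side did change in PANC-1: HSPA6, a strictly inducible HSP70, rose 5.67-fold (adjusted p 3.68e-07), the nucleotide exchange factor BAG3 1.56-fold, the small chaperone HSPB1 1.41-fold and the J-protein DNAJB1 1.22-fold, while the constitutive HSPA8 fell by 0.39 on the log2 scale. In the colon lines HSPA8 fell by 1.30 in RKO and by 0.55 in DLD-1, and the J-protein DNAJA1 fell by 0.70 and 0.35. HSPA6 rose 4.54-fold in DLD-1, where the DMSO libraries held 1.599, 2.65 and 0.872 CPM and the carfilzomib libraries 8.43, 6.20 and 8.59 CPM. The member medians of H-929 and RPMI, 0.05 and 0.67 with CHORDC1 included, differed while both lines raised the HSPA1A and HSPA1B sum.

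Across the 8 lines the members' median log2 fold change was followed most closely, in Pearson's r and among 8999 genes with at least 50 mean counts in every line, by RAB2B, CENPN, SNRNP27, KLHL7 and PI4KB. Their r was 0.99, 0.99, 0.99, 0.98 and 0.98 over 8 lines, the highest of the 8999 by construction, and these points share their libraries and scaling. RAB2B stood at -0.11 in RKO, 1.09 in H-1299 and 1.00 in RPMI. Among the members themselves r with their own median, which they help to set, was 0.99 for HSP90AB1, 0.88 for STIP1, 0.75 for HSP90AA1, 0.14 for CDC37 and -0.18 for FKBP4. CHORDC1, with its uncertain values, also entered that median.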

How the data were processed

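RNA of 48 libraries was counted per gene. The table deposited by the authors holds raw counts, and each row has a symbol and an Ensembl identifier per the file headers. Trimmomatic, HISAT2, FastQC, DESeq2, bcl2fastq 2.19 and the build hg38 are named in the submitters' processing notes, and the counting program, its annotation and its use of strand are not given in the sources used here. Per the labels' protocols the libraries were stranded total RNA.

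From the counts, the 6 libraries of a line were fitted alone in edgeR 4.0.16 (TMM, filterByExpr, quasi-likelihood F test) in R 4.3.3, with Benjamini-Hochberg adjustment over all genes tested in that line and calls at an adjusted p under 0.05. All 10 members passed that filter in all 8 lines. Differences between lines came from 1 fit of 16 groups, and the average over lines from limma 3.58.1 on 8 log2 fold changes. CPM are scaled by the TMM of the line, and CPM per kilobase by TMM over all libraries and by the merged length of all GENCODE 29 exons of the gene. The log2 ratio of HSP90AA1 to HSP90AB1 was compared by an exact permutation test. Depth was 9.12 to 64.4 M counts, which sets counting error only. An identifier occurs more than once in 4803 rows. The replicate numbers did not pair the libraries.

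The members and lists were chosen with earlier results of these data known. The text names all members, genes of 3 lists called alike in at least 6 lines or with the highest or lowest median, and the 5 genes most correlated with the members' median. AARSD1 was not tested. On simulated data the share of false calls was above the nominal rate for 7 of 8 lines where each gene kept its own dispersion. With dispersions taken from the trend it was above that rate in RKO, H-1299, CAPAN-2 and H-929. Differences between lines were simulated with the same dispersion for every gene, which the data do not have. In that setting the H-929 minus RPMI difference had false calls above the nominal rate, and most 1.5-fold differences were missed. It does not tell which differences of the members could be found. The named genes of the lists were also fitted without each library, which was chosen after seeing the data. Alternatives were DESeq2's size factors, library totals, the Wald test of DESeq2 1.42.0, a minimum mean of 50 counts, no filter, the fit of all libraries, a replicate block, summed rows of an identifier, an added 0.5 count in the ratio, and leaving out each library, replicate number or line.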

Additional observations from a re-analysis of the deposited data

Results flagged for a closer look

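The results below were picked because the log2 response to carfilzomib of a member differed between the lines of a tumour type by the edgeR test of the difference itself, at an adjusted p under 0.05. Each value is the response of the first line minus that of the second, in units of log2 fold change.

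For HSP90AA1 the difference passed in every pair, at -0.62 for RKO minus DLD-1, 0.98 for H-1299 minus H-23, 0.75 for CAPAN-2 minus PANC-1 and -1.45 for H-929 minus RPMI. It was the only member to do so. HSP90AB1 differed in the lung (0.73), pancreatic (0.41) and myeloma (-0.96) pairs, and HSPH1 in the same pairs, at 1.28, 0.56 and -0.44. Of the other HSP110 genes, HSPA4 differed by 0.27 in the lung pair and -0.72 in the myeloma pair, and HSPA4L by 0.56 and -1.45.

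Among the co-chaperones STIP1 differed by 0.45 in the lung, 0.30 in the pancreatic and -0.34 in the myeloma pair. AHSA1 differed by 0.87 in the lung and 0.27 in the pancreatic pair. FKBP4 had the opposite sign to the HSP90 genes in the pancreatic pair (-0.42) and the myeloma pair (0.50). CDC37 differed by -0.29 in the colon pair and 0.45 in the myeloma pair. CHORDC1 differed by 4.84 in the lung pair, a value that rests on replicate 1.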

How the results depend on the processing

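Of the 54 calls of members other than CHORDC1, 43 kept their direction and their side of the threshold under every alternative run, including each left-out library, 11 were lost under at least 1, and none changed sign. The fit of all 48 libraries lost 9 of the 55 calls, CHORDC1 included, and brought HSP90AB1, AHSA1 and FKBP4 in H-929 past the threshold as lower. It left 3 members higher and 0 lower in H-23 and 5 lower in H-929. The cause was not tested. Without a filter, 2 members were lower in H-23. With library totals or a mean of at least 50 counts, 1 was lower in H-929. Leaving out 1 library gave 0 to 1 higher in DLD-1, 1 to 2 lower in H-23 and 1 to 2 lower in H-929, and leaving out a replicate number gave 1 to 2 colon differences.

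Apart from CHORDC1 and HYOU1, no value that changed sign was called with or without the alternative. Under library totals these were CDC37 in RKO (0.030), STIP1 in H-23 (-0.0073), AHSA1 (0.014) and FKBP4 (0.016) in H-929. With DESeq2 size factors they were AHSA1 (0.0055) and FKBP4 (0.0088) in H-929. At a mean of 50 counts they were HSP90AB1 (0.049), AHSA1 (0.11) and FKBP4 (0.11) in H-929. Without a filter they were STIP1 in H-23 (-0.0019), AHSA1 in RPMI (-0.028) and the colon difference of HSPA4 (-0.00047). In the fit of all libraries they were HSP90AA1 in DLD-1 (-0.0028), STIP1 in H-23 (-0.0034), CHORDC1 in H-929 (-0.048) and AHSA1 in RPMI (-0.066). Without RPMI the average of FKBP4 was 0.055.

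Over single libraries left out, CDC37 in RKO ran from -0.040 to 0.012 and HSP90AA1 in DLD-1 from -0.076 to 0.059. FKBP4 ran from -0.078 to 0.061 in H-1299, -0.014 to 0.11 in CAPAN-2 and -0.064 to 0.023 in H-929. AHSA1 ran from -0.10 to 0.017 in H-929 and -0.023 to 0.050 in RPMI, and the log2 HSP90 ratio difference in H-23 from -0.052 to 0.039. CHORDC1 ran from -0.39 to 0.80 in RKO, -0.52 to 1.78 in DLD-1, -2.78 to 0.62 in H-23, -0.24 to 4.21 in H-1299, -0.23 to 3.45 in CAPAN-2, -0.997 to 0.63 in H-929 and -0.077 to 2.84 in RPMI. HYOU1, for which this was added after seeing the data, ran from -0.19 to 1.11 in RKO, -0.015 to 2.34 in H-23, -0.79 to 1.603 in H-1299 and -0.39 to 1.03 in H-929. Over replicate numbers left out, the differences of CHORDC1 ran from -0.66 to 0.86 in the colon, -1.38 to 2.99 in the pancreatic and -4.60 to 1.49 in the myeloma pair, and the colon difference of FKBP4 from -0.16 to 0.043.

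Samples with the same replicate number did not deviate together (r between -0.06 and 0.07 in every line), and in H-23 and PANC-1 every sample correlated best with its own number. With the replicate block, 75 of 80 values kept their side and direction, 1 was lost (HSPA4L in DLD-1, adjusted p 0.0593), 3 passed that had not (HSP90AA1 in H-23, adjusted p 0.00466, HSPA4 in RPMI, 0.0333, and CHORDC1 in PANC-1, 0.0377), and CHORDC1 in H-929 turned to -0.041. The differences of CHORDC1 under the replicate block were -0.20 in the colon and 0.88 in the pancreatic pair, and its lung difference was lost (2.94, adjusted p 0.203). Of the differences, STIP1 in the colon pair passed at a mean of 50 counts (-0.22, adjusted p 0.0345) and FKBP4 in the lung pair with library totals (-0.23, adjusted p 0.0197). The shallowest library, of H-929, held 9.12 M counts.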
